A study of Mus musculus with 24 samples.

Results

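The genes described here are Lin28a, Lin28b, Trim71, Igf2bp1, Igf2bp2, Igf2bp3 and Hmga2, a set that belongs to the LIN28 and let-7 pathway. They were chosen by gene symbol, and all 7 were found among the 51912 genes of the count tables. RNA-Seq was available for 3 groups of mouse cells with 3 libraries each. The ESCs were wild-type embryonic stem cells of the TC-1 line (strain C57BL/6 X 129S5), grown with the self-renewal factor LIF. The NPs were neuronal progenitors made from wild-type ESCs of the same strain by growth as floating aggregates and then retinoic acid, so every NP library comes from retinoic acid treated cells. The TET TKO cells were ESCs of genotype TET1/2/3 triple knockout on another background (C57BL/6 X 129/sv). They lack the 3 enzymes that oxidise methylated cytosine, and they stand for a separate line rather than a deletion made in TC-1. The RNA-Seq libraries were made to relate transcript levels in these cells to DNA methylation at an inserted fragment, which was not analysed here.

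let-7 is a family of microRNAs that pair through their seed with sites in the 3′ UTR of target mRNAs and lower the output of those mRNAs. LIN28A and LIN28B are RNA-binding proteins that bind let-7 precursors and block their maturation, and their own mRNAs are let-7 targets, so the circuit closes on itself. let-7 is known to be kept low in pluripotent cells and to rise as they differentiate. TRIM71 (LIN-41), the IGF2BP RNA-binding proteins and the chromatin protein HMGA2 are among the best known products of let-7 targets, and they are typical of early embryonic and fetal tissue.

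The mature let-7 sequences are shown because their common seed defines the sites looked for in the 7 genes. They were taken from RefSeq (GRCm38.p6), and the capitals mark bases 2 to 8, the seed.
let-7a-5p: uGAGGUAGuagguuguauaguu
let-7b-5p: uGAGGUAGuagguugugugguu
let-7d-5p: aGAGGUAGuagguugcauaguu
let-7e-5p: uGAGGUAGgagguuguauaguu
let-7g-5p: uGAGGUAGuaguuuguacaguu
miR-98-5p: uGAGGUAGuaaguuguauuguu
The seed GAGGUAG was identical in all 9 mature sequences read, of which 6 are printed. The let-7a-5p copy of Mirlet7a-1 lies at chr13:48538239-48538260 on the minus strand, and let-7g-5p at chr9:106178846-106178867 on the plus strand. RNAs of this length are not captured by mRNA libraries, so mature let-7 was not measured.

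The reverse complement of the seed, CTACCTC, was searched on the transcript strand only, in the longest 3′ UTR that GENCODE M21 (GRCm38) gives each gene. All 7 genes held it, with 20 matches in total. The 3′ UTRs of Lin28b, Trim71, Igf2bp1 and Hmga2 held 4 matches each, that of Lin28a held 2, and those of Igf2bp2 and Igf2bp3 held 1 each. Over all 21022 genes with an annotated 3′ UTR, 9.02% held at least 1 match and 1.08% at least 2. The density was 0.770 matches per kb over the 7 genes and 0.0700 per kb over all 3′ UTRs. In windows of the same length, 6.47% of 21969 stretches of 1000 bases held a match. The genes are known as let-7 targets, so these counts describe the set and are no test of it. Gene by gene, the density was highest for Hmga2 (1.33 matches per kb of a 3′ UTR of 3014 bases) and lowest for Igf2bp3 (0.472 per kb of 2119 bases).

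The first match after the stop codon of each gene, and the closely spaced last pair of Trim71, are printed below with 15 bases upstream and 1 downstream, since they show what the sites have in common and where they differ. The capitals mark the match to the seed, all sites lie in the 3′ UTR, and all 7 genes are on the minus strand of GRCm38.
Lin28a, chr4:134005189-134005211: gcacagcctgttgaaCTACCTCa
Lin28b, chr10:45381022-45381044: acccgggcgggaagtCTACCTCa
Trim71, chr9:114512472-114512494: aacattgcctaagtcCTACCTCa
Trim71, chr9:114509047-114509069: tttagtatggattttCTACCTCa
Trim71, chr9:114509021-114509043: ttggcaaaaagttgtCTACCTCa
Igf2bp1, chr11:95961778-95961800: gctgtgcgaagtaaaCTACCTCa
Igf2bp2, chr16:22059473-22059495: acacacaaataaaagCTACCTCa
Igf2bp3, chr6:49086787-49086809: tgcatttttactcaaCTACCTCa
Hmga2, chr10:120364224-120364246: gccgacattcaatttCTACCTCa
Each printed match is followed by an A, the base that Argonaute proteins favour opposite the first base of a microRNA. This held for all 4 matches in Trim71 and for both in Lin28a, but for 1 of 4 in Lin28b, 1 of 4 in Hmga2 and 3 of 4 in Igf2bp1. A match is a stretch of letters in the annotated transcript, and binding there was not measured.

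**Figure D1:**
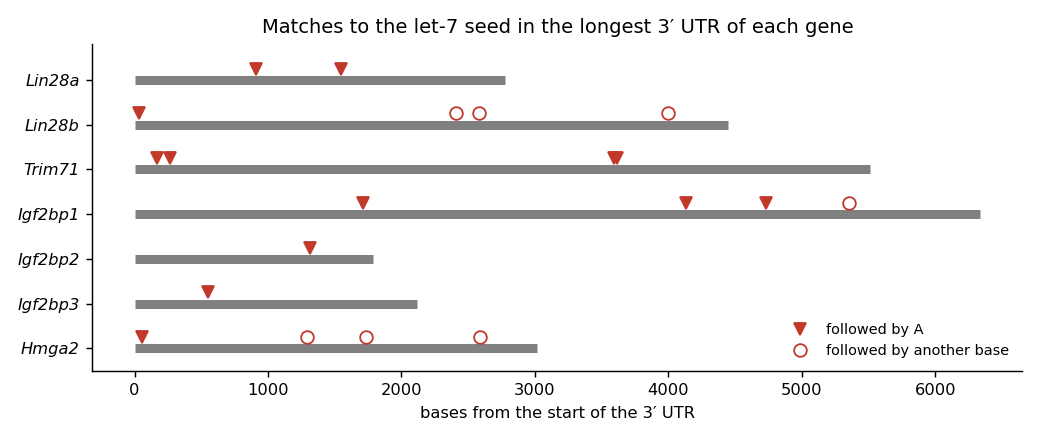
Position of each match to the let-7 seed in the longest annotated 3′ UTR of the 7 genes, in bases from the start of the 3′ UTR. Grey bars show the 3′ UTR, filled triangles a match followed by A and open circles a match followed by another base. The Lin28b and Hmga2 matches nearest the stop codon are the ones followed by A, and the last pair in Trim71 nearly coincide.

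The libraries held 20570050 to 23976914 gene counts in ESCs, 20519702 to 22132988 in NPs and 80704741 to 93210102 in TET TKO cells, so depth differed between TET TKO cells and the rest. Tet1 fell from 65.1 ± 3.92 RPKM in ESCs to 13.5 ± 2.38 in TET TKO cells, and Tet2 fell from 18.97 ± 2.47 to 2.48 ± 0.197 (mean ± SD, n = 3). Tet3 was below 1 RPKM in both groups and was not tested. The counts are per gene, so they do not show which exons the remaining Tet reads came from. RPKM stands for reads per kilobase of exonic sequence, scaled to the depth of the library. All 8 pluripotency markers fell in NPs and all 8 neural progenitor markers rose there. The summed pluripotency RPKM was 2452 to 2530 in ESCs, 2303 to 3070 in TET TKO cells and 7.61 to 26.4 in NPs. Zfp42 alone of this list was called lower in TET TKO cells (1 of 8, against 1.31% of all genes). Pou5f1, Esrrb and Klf4 were not called, but all their TET TKO libraries lay below the ESCs. Those of Dppa5a, the largest part of the sum, lay above the ESCs (1508 ± 344 against 956 ± 25.7 RPKM). Markers of other cell types also rose in NPs. They were 4 of 5 tested for endoderm, 3 of 6 for neurons, 1 of 2 for mesoderm and 1 of 4 for fibroblasts. The neuron marker Stmn2 fell. The other mesoderm marker tested, T, was not called. Its NP libraries (0.162, 0.284 and 0.205 RPKM) all lay below the ESCs (0.771, 1.19 and 0.404). T passed 1 RPKM in ESC replicate 2 only, which admitted it to the test. Over all genes tested in NPs, 12.4% were called higher and 9.99% lower. Below 1 RPKM in every ESC library were 5 of 8 neural progenitor, 6 of 6 endoderm, 3 of 6 neuron, 5 of 6 mesoderm and 4 of 6 fibroblast markers. Those of them that were tested in NPs were admitted to the test by NP libraries alone. The mesoderm marker Hand1 rose in TET TKO cells, as 1 of 3 tested, against 0.84% of all genes called higher there. It was below 1 RPKM in every ESC library, so TET TKO libraries alone admitted it to the test. The mesoderm marker T was not called in TET TKO cells. It was lower in every TET TKO library (0.291, 0.254 and 0.0601 RPKM) than in any ESC library. None of 4 tested neural progenitor, 3 neuron and 3 fibroblast markers was called in TET TKO cells. Among the neural progenitor markers, Vim was lower and Nes higher in every TET TKO library than in any ESC library. In the same sense the neuron markers Tubb3 and Stmn2 were lower and Elavl3 higher. Of the fibroblast markers tested there, Thy1 was lower and Col1a2 higher. All 6 endoderm markers stayed below 1 RPKM in every ESC and TET TKO library. The summed level of the 6 fibroblast markers was 18.7, 36.7 and 3.55 RPKM in NP replicates 1, 2 and 3. Of these markers, Dcn and Lum stayed below 1 RPKM in every NP library, and Thy1 was lower in every NP library than in any ESC library. The part of the markers of other cell types in the results below was not tested. In bulk RNA, fewer cells that express a gene and less of its RNA per cell cannot be told apart.

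LIN28A is the form found in pluripotent cells. Its RPKM was 101, 99.9 and 107 in the 3 ESC libraries, 16.1, 23.2 and 20.7 in NPs, and 85.1, 161 and 51.0 in TET TKO cells. Every NP library lay below every ESC and TET TKO library, whereas the TET TKO libraries lay on both sides of the ESCs. With a mean of 103 ± 3.84 RPKM, Lin28a was the highest of the 7 genes in ESCs and stood above 97.1% of the 12385 genes that reached a mean of 1 RPKM there.

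LIN28B is the second LIN28 protein and is known for its roles in fetal tissue and tumours. Its RPKM was 3.78, 4.45 and 3.75 in ESCs, 6.11, 7.79 and 8.94 in NPs, and 7.48, 9.24 and 4.12 among the TET TKO libraries. The NP libraries all lay above the ESCs. TET TKO replicate 3 lay within the ESC range and the other TET TKO libraries above it.

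Trim71 encodes a ubiquitin ligase and RNA-binding repressor that is required in early neural development. Its RPKM was 48.0, 48.6 and 45.6 in ESCs, 10.8, 10.97 and 9.61 in NPs, and 42.7, 58.4 and 34.6 among the TET TKO libraries. As for Lin28a, the NP libraries lay apart and below, and the ranges of ESCs and TET TKO cells overlapped. Over the 9 libraries, Lin28a and Trim71 had the highest correlation of any pair of the 7 genes (Pearson's r of log2(RPKM + 1) = 0.976), a description that rests largely on the gap between NPs and the other groups.

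The IGF2BP proteins bind and stabilise mRNAs, Igf2 mRNA among them. Igf2bp1 was at 90.7, 94.4 and 83.3 RPKM in ESCs, 61.2, 61.9 and 58.7 in NPs, and 111, 165 and 86.1 among the TET TKO libraries. Igf2bp2 was at 28.8, 30.7 and 35.1 RPKM in ESCs, 53.1, 37.1 and 37.8 in NPs, and 41.8, 23.6 and 46.0 among the TET TKO libraries. Igf2bp3 was at 3.81, 3.66 and 5.61 RPKM in ESCs, 27.7, 14.4 and 17.9 in NPs, and 8.04, 7.87 and 8.04 among the TET TKO libraries. Igf2bp1 was thus lower in every NP library than in any other library, and Igf2bp3 was higher in every NP library than in any other. The Igf2bp2 ranges of TET TKO cells overlapped both other groups, and all NP libraries lay above the ESCs.

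HMGA2 is a small chromatin protein that binds AT-rich DNA, and its long 3′ UTR is a textbook let-7 target. Hmga2 was at 1.94, 2.72 and 1.77 RPKM in ESCs, 27.9, 34.2 and 24.3 in NPs, and 5.69, 4.88 and 5.45 among the TET TKO libraries. The 3 groups did not overlap, with NPs highest and ESCs lowest. In ESCs Hmga2 was the lowest of the 7 genes, and 280 to 403 reads per library lay behind these values.

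**Figure D2:**
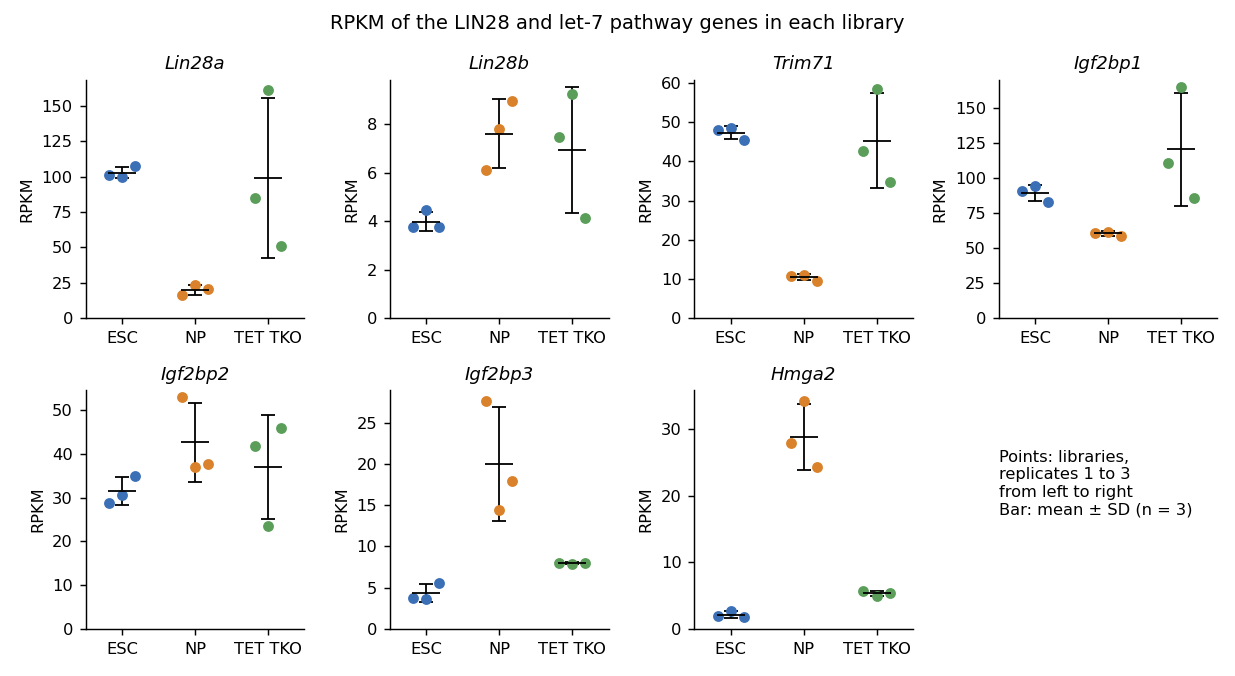
RPKM of each gene in the 9 libraries, with 1 panel per gene and its own axis from 0. Points are replicates 1 to 3 from left to right, and the bars give the mean ± SD (n = 3). NPs lie apart below both ESC groups for Lin28a, Trim71 and Igf2bp1 and apart above them for Igf2bp3 and Hmga2, and the TET TKO points of Lin28a range from 51.0 to 161.

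Between NPs and ESCs, Lin28a and Trim71 fell and Igf2bp3 and Hmga2 rose. Genes were called by edgeR's quasi-likelihood test at a Benjamini-Hochberg adjusted p below 0.001 and a fold change of at least 3. This called 2 of the 7 genes lower and 2 higher, against 9.99% called lower and 12.4% called higher among all 15020 genes tested. Lin28a fell by 2.37 on the log2 scale (SE 0.148, adjusted p = 4.91e-06), which is 5.19-fold. Trim71 fell by 2.19 (SE 0.102, adjusted p = 1.28e-06), which is 4.58-fold. Hmga2 rose 13.3-fold (log2 fold change 3.73, SE 0.203, adjusted p = 2.59e-06), and 95.2% of the genes tested had a lower log2 fold change. Igf2bp3 rose 4.54-fold (log2 fold change 2.18, SE 0.267, adjusted p = 0.000157). Without ESC replicate 1 its adjusted p was 0.00108 and the call was lost, with a log2 fold change of 2.10.

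The remaining 3 genes did not pass, and all 3 were under the 3-fold limit. By DESeq2, 6 of the 7 genes had an adjusted p below 0.001, Lin28b and Igf2bp1 among them, and 4 were called. By edgeR the log2 fold change in NPs was 0.92 for Lin28b (SE 0.168, adjusted p = 0.00144), −0.58 for Igf2bp1 (SE 0.1001, adjusted p = 0.00112) and 0.42 for Igf2bp2 (SE 0.157, adjusted p = 0.0422). All 7 genes had NP and ESC libraries that did not overlap, as did 72.1% of all genes tested. The median log2 fold change was 0.42 over the 7 genes and 0.03 over all genes tested. The set was thus divided, with members of each direction among the genes that hold 4 seed matches (Trim71 lower, Hmga2 higher).

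Between TET TKO cells and ESCs, none of the 7 genes was called, against 0.84% called higher and 1.31% called lower among 14050 genes tested by the same edgeR test. By edgeR 3 of the 7 had an unadjusted p below 0.05, as did 45% of all genes tested. DESeq2 also called none of the 7, although 2 of them, Hmga2 and Igf2bp3, reached its adjusted p below 0.001 at a smaller fold. The largest value was that of Hmga2, with a log2 fold change of 1.20 (SE 0.184, edgeR adjusted p = 0.00294) and an approximate 95% interval of 0.83 to 1.56 from its standard error. Igf2bp3 followed with 0.75 (SE 0.170, adjusted p = 0.0131), then Lin28b with 0.68 (SE 0.265, adjusted p = 0.0855). Both Hmga2 and Igf2bp3 had TET TKO libraries that lay wholly above the ESCs, as did no other member, and 51.7% of all genes tested did not overlap in one direction or the other.

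For the other 4 genes the interval of the difference spanned 0. It ran from −0.87 to 0.51 for Lin28a, from −0.53 to 0.16 for Trim71, from −0.11 to 0.73 for Igf2bp1 and from −0.34 to 0.57 for Igf2bp2 on the log2 scale. The median log2 fold change was 0.31 over the 7 genes and 0.01 over all genes tested. The genotype, the strain and line, and the depth all differ between these groups. The effects of genotype and of strain and line cannot be told apart. With TET TKO counts thinned to ESC depth, the log2 fold change was 1.20 for Hmga2, 0.75 for Igf2bp3 and 0.69 for Lin28b. It was −0.19 for Lin28a, −0.21 for Trim71, 0.29 for Igf2bp1 and 0.11 for Igf2bp2. Both comparisons use the same 3 ESC libraries, so their values are not independent of each other.

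**Figure D3:**
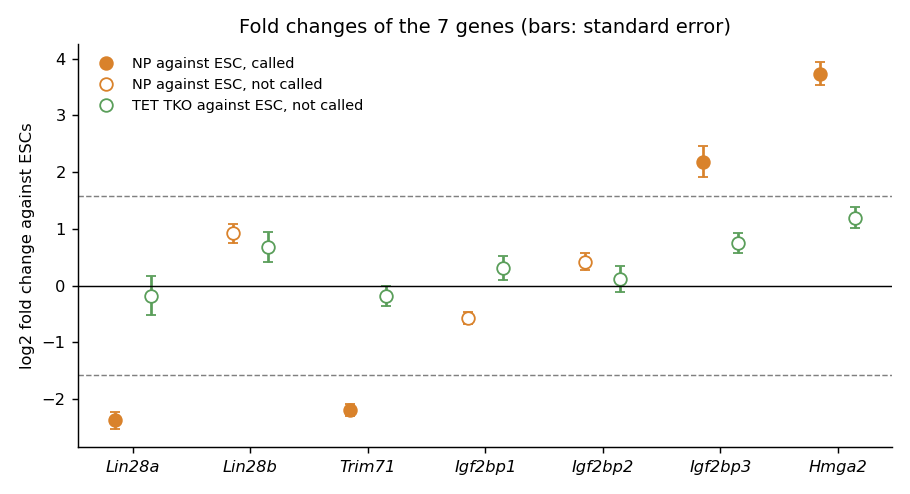
Log2 fold change of each gene against ESCs by edgeR, in NPs (orange) and TET TKO cells (green), with bars of 1 standard error. Filled points passed the adjusted p and the 3-fold limit (dashed lines), and open points did not. Lin28a (−2.37) and Trim71 (−2.19) lie below the lower line and Igf2bp3 (2.18) and Hmga2 (3.73) above the upper line, all in NPs.

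The spread within TET TKO cells was wide for some members and narrow for others. The highest TET TKO library exceeded the lowest 3.16-fold for Lin28a, 2.24-fold for Lin28b, 1.69-fold for Trim71 and 1.92-fold for Igf2bp1. In each of these 4 genes replicate 2 was highest and replicate 3 lowest. Igf2bp2 went the other way, with replicate 2 lowest and replicate 3 highest (1.94-fold). For Igf2bp3 and Hmga2 the ratio was 1.02 and 1.17. Within ESCs the same ratio ran from 1.06 for Trim71 and 1.07 for Lin28a to 1.53 for Igf2bp3 and 1.54 for Hmga2, so for the last 2 genes it was larger in ESCs than in TET TKO cells. The total count of TET TKO replicates 1, 2 and 3 was 84377108, 80704741 and 93210102, and their summed pluripotency RPKM was 2503, 2303 and 3070. The summed neural progenitor markers were at 36.5, 43.1 and 17.1 RPKM and the neuron markers at 70.8, 92.2 and 48.5 RPKM, in the same order of libraries as Lin28a. The part of any of these in the spread was not tested.

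Lin28a made up nearly all of the Lin28 RPKM in ESCs and less of it in NPs. Its share of the summed RPKM of Lin28a and Lin28b was 96.4%, 95.7% and 96.6% in ESCs, 72.5%, 74.8% and 69.8% in NPs, and 91.9%, 94.6% and 92.5% among the TET TKO libraries. The 3 groups did not overlap. The mean share was 23.9 percentage points below ESCs in NPs and 3.25 points below in TET TKO cells, each with p = 0.1 by a two-sided exact permutation test, the smallest p that 3 against 3 libraries allow. The summed Lin28 RPKM was 107 ± 3.59 in ESCs, 27.6 ± 4.71 in NPs and 106 ± 58.8 among the TET TKO libraries (SD, n = 3).

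The summed RPKM of the 3 Igf2bp genes was 125 ± 2.97 in ESCs, 123.2 ± 16.2 in NPs and 166 ± 28.6 among the TET TKO libraries. In its make-up, Igf2bp1 accounted for 71.3 ± 3.59% of it in ESCs and 49.7 ± 5.92% in NPs, Igf2bp2 for 25.2 ± 2.70% and 34.4 ± 2.61%, and Igf2bp3 for 3.49 ± 0.908% and 15.9 ± 3.41%. The NP libraries did not overlap the ESCs in any of these 3 shares. In TET TKO cells Igf2bp1 made up 71.5 ± 11.5%, with libraries on both sides of the ESCs. Levels between genes depend on the length used, here all annotated exonic bases. With the longest coding transcript instead, an alternative added after the data were seen, NPs had 78.0 RPKM of Igf2bp2 and 70.0 of Igf2bp1, which turns their order, and the Lin28a share differed from that of ESCs by −30.5 points in NPs and −4.54 in TET TKO cells.

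**Figure D4:**
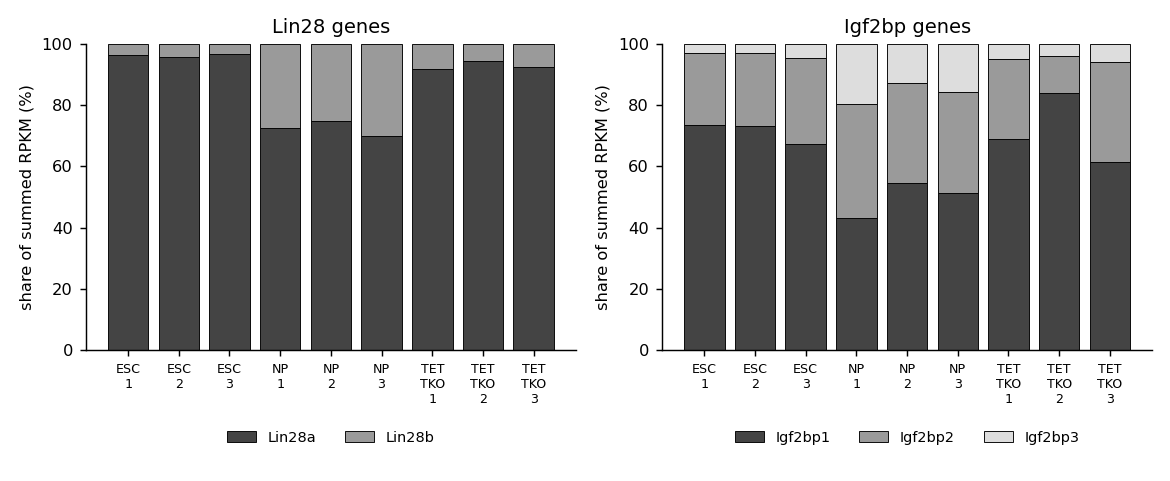
Share of each gene in the summed RPKM of its family, as stacked bars that fill 0 to 100% for each of the 9 libraries. The Lin28b part is 25.2 to 30.2% in NPs and at most 4.26% in ESCs, and the Igf2bp3 part is 12.7 to 19.5% in NPs and at most 4.52% in ESCs.

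In order of RPKM in ESCs the genes were Lin28a, Igf2bp1, Trim71, Igf2bp2, Igf2bp3, Lin28b and Hmga2, and only Igf2bp3 and Lin28b had overlapping library ranges. In NPs the order was Igf2bp1, Igf2bp2, Hmga2, Igf2bp3, Lin28a, Trim71 and Lin28b. There Igf2bp3 (19.99 ± 6.89 RPKM) overlapped both Hmga2 (28.8 ± 4.97) and Lin28a (19.98 ± 3.58). In TET TKO cells Igf2bp1 and Lin28a led, and of the neighbours in the order only Igf2bp2 and Igf2bp3 lay apart. These orders depend on the length used. With the longest coding transcript Igf2bp2 (57.7 RPKM) stood above Trim71 (47.4) in ESCs and likewise in TET TKO cells (67.9 and 45.3), and Lin28b (12.8) stood above Trim71 (10.5) in NPs.

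Upstream of the 7 genes, the let-7 hairpin genes were essentially not counted. Of 12 let-7 and Mir98 genes, 9 had 0 counts in all ESC libraries, 10 in all NP libraries and 9 in all TET TKO libraries, with at most 3 counts for any gene in a library. Host transcripts of let-7 clusters were measured. Mir99ahg, which hosts a let-7c gene, had 0 counts in every ESC library, which allows up to 0.0104 RPKM. It had 105, 86 and 125 counts in NPs (0.329 ± 0.0687 RPKM) and at most 1 in a TET TKO library, and it was below the level required for testing. Huwe1, which hosts let-7f-2 and Mir98, was at 45.3 ± 1.07 RPKM in ESCs, 36.8 ± 5.97 in NPs and 42.7 ± 2.57 among the TET TKO libraries. Wdr82, which overlaps the let-7g locus, was at 50.5 ± 3.06, 28.3 ± 3.21 and 30.6 ± 4.05 RPKM. Neither Huwe1 nor Wdr82 passed the 3-fold limit, although Wdr82 had an adjusted p of 0.000422 in NPs by edgeR (log2 fold change −0.85).

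Of 10 genes for the processing and decay of let-7, 1 was called higher in NPs and none in TET TKO cells, and none was called lower. That 1 of 10 lies near the 12.4% of all genes called higher in NPs. Prkra, whose product PACT is a partner of Dicer, rose from 5.84, 5.76 and 7.74 RPKM in ESCs to 27.9, 25.7 and 26.6 in NPs (log2 fold change 2.04, SE 0.158, adjusted p = 1.42e-05 by edgeR). Under the 3-fold limit in NPs, Dis3l2 was 2.09-fold higher (adjusted p = 0.0006 by edgeR) and Tarbp2 1.95-fold lower (adjusted p = 0.000454). The median over the 10 genes was −0.02 in NPs and 0.27 in TET TKO cells. Of 7 Argonaute and GW182 genes, which form the silencing complex, Ago4 rose in NPs from 0.116 ± 0.0110 to 1.11 ± 0.341 RPKM (log2 fold change 3.23, SE 0.339, adjusted p = 6.97e-05). This 1 of 7 is also near the share of all genes, and Ago4 was tested only because NP replicates 1 and 3 exceeded 1 RPKM, so its call rests on a gene admitted by the group in which it is high. No gene of that list was called in TET TKO cells, where 6 were tested.

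Of 22 other known let-7 targets, 21 were tested in NPs. Of these 8 were called higher and none lower, which is 38.1% against the 12.4% of all genes called higher. Arid3b was lower in NPs but under the 3-fold limit (log2 fold change −1.06, SE 0.103, adjusted p = 4.56e-05 by edgeR). The median log2 fold change of 0.28 stood beside 0.03 over all genes tested. Ccnd2, a cyclin of the G1 phase, rose from 2.18, 2.37 and 1.87 RPKM in ESCs to 211, 169 and 197 in NPs (log2 fold change 6.48, SE 0.172, adjusted p = 2.74e-07). Plagl1, an imprinted zinc finger factor, rose by 5.02 on the log2 scale (SE 0.356, adjusted p = 9.24e-06). Irs2, an adaptor of insulin and IGF receptors, rose by 3.05 (SE 0.235, adjusted p = 1.38e-05), and Plagl2 by 2.13 (SE 0.135, adjusted p = 5.43e-06). Of these 4, Irs2 and Plagl2 each held 1 seed match in the 3′ UTR and Ccnd2 and Plagl1 held none, and over the list 13 of 22 genes held at least 1.

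In TET TKO cells 2 of the 21 tested targets were called higher and none lower. This is 9.52% against 0.84% of all genes called higher. Insr, the insulin receptor, rose from 1.44, 1.57 and 1.91 RPKM in ESCs to 6.99, 6.35 and 8.70 (log2 fold change 2.05, SE 0.165, adjusted p = 0.00026). Hmga1, the relative of Hmga2, rose from 17.3, 18.9 and 18.7 RPKM to 77.3, 80.5 and 53.6 (log2 fold change 1.82, SE 0.160, adjusted p = 0.000351). In both genes every TET TKO library lay above every ESC library. Ccnd2 went the other way, with every TET TKO library below every ESC library. Its log2 fold change was −2.02 (SE 0.463), and its adjusted p of 0.0138 by edgeR missed the limit. Near-identical copies of Hmga1 exist in the mouse genome, so its reads could have been divided or dropped in counting.

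Of 3 RNAs of the IGF2 axis, 2 rose in NPs, where 12.4% of all genes tested were called higher. None was called in TET TKO cells, where 0.84% of all genes were called higher and 1.31% lower. Igf2, the growth factor whose mRNA the IGF2BP proteins bind, rose in NPs from 2.51, 4.22 and 1.14 RPKM to 215, 219 and 52.0 (log2 fold change 5.93, SE 0.692, adjusted p = 0.000122 by edgeR). Its imprinted neighbour H19, a non-coding RNA known to bind let-7, rose from 14.0, 18.6 and 5.92 RPKM to 226, 1240 and 237 (log2 fold change 5.44, SE 0.811, adjusted p = 0.000472). The NP library with the highest H19 was also that with the highest summed fibroblast markers. NP replicates 1 and 3, with 226 and 237 RPKM of H19, had fibroblast sums of 18.7 and 3.55 RPKM. A relation between H19 and these markers was not tested. In TET TKO cells H19 was at 160, 412 and 614 RPKM, all above the ESCs, with an adjusted p of 0.00137 that missed the limit. Of 4 mRNAs known to be repressed by TRIM71, 3 were tested. In NPs Egr1, an immediate early transcription factor, fell by 1.597 on the log2 scale (SE 0.244, adjusted p = 0.000544). This is 3.02-fold and close to the 3-fold limit, and 9.99% of all genes were called lower in NPs. The other 2 were not called in either comparison. Of those, Cdkn1a, a cyclin-dependent kinase inhibitor, had a log2 fold change of 1.36 in NPs (SE 0.120, adjusted p = 2.74e-05), under the 3-fold limit, with every NP library above every ESC library.

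**Figure D5:**
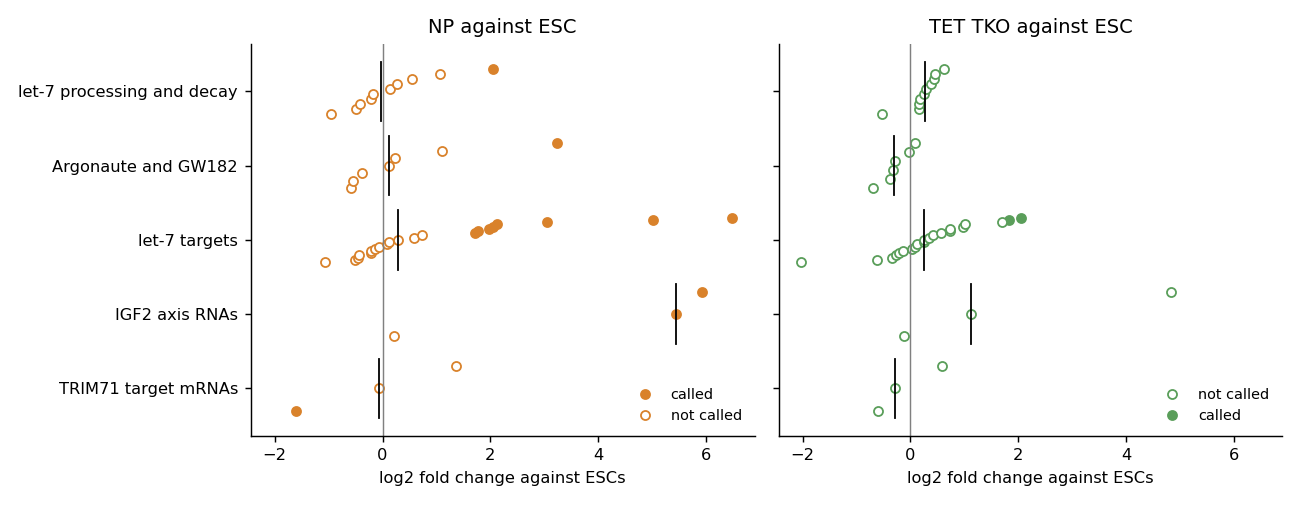
Log2 fold change against ESCs of each tested gene in 5 lists of the wider pathway, in NPs (left) and TET TKO cells (right). Filled points were called, open points were not, and the black line marks the median of the list. The let-7 targets reach 6.48 in NPs (Ccnd2) and 2.05 in TET TKO cells (Insr), and no target was called lower.

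Beyond the lists, the tested genes with an annotated 3′ UTR, other than the 7, were grouped by the number of seed matches in the 3′ UTR. In NPs 12.9% of 11388 genes with no match were called higher, 16.4% of 1177 genes with 1 match and 17.5% of 166 genes with 2 or more. The shares called lower were 9.62%, 7.73% and 9.04%. The median 3′ UTR length of these classes was 1042, 2136 and 3648 bases, and its part in these shares was not tested. In TET TKO cells the shares called higher were 0.872%, 1.36% and 0.645%, the last being 1 of 155 genes, and the shares called lower were 0.891%, 0.815% and 1.94%, the last being 3 genes.

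The genes whose pattern over the 9 libraries was most like each member were found by Pearson's r of log2(RPKM + 1) over 15481 other genes. For Lin28a they were Mrps18b (r = 0.995) and Eif2d (0.992), for Trim71 Slc28a1 (0.997) and Ddx21 (0.996), and for Igf2bp1 Exosc10 (0.990) and Pim2 (0.982). For Hmga2 they were Sel1l3 (0.997) and Fzd1 (0.995), and for Igf2bp3 Slc25a51 (0.994) and Cldn9 (0.993). For Lin28b they were Mrpl9 (0.971) and Blmh (0.951), and for Igf2bp2 2010300C02Rik (0.966) and Zc3h6 (0.952). These are the highest of many values over 9 libraries that fall in 3 groups, and they describe likeness in these libraries only. Reads from opposite strands were not separated in counting, and Igf2bp3 shares its locus with Malsu1 on the other strand. Malsu1 had 388 to 439 counts in ESC libraries, 472 to 638 in NPs and 1433 to 2126 in the deeper TET TKO libraries.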

How the data were processed

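RNA-Seq libraries (stranded mRNA kit, single-end reads) were trimmed by the authors, aligned to GRCm38 (Ensembl release 89) with STAR 2.6.1b and assigned to genes with featureCounts 1.6.2 without regard to strand, per the labels, methods and file headers. The values that the authors deposited are unnormalised gene counts. From them, edgeR 4.0.16 (R 4.3.3) gave TMM library sizes, RPKM and quasi-likelihood tests with Benjamini-Hochberg adjustment, for each pair of groups alone, over genes that reached an RPKM of 1 in any library compared. Genes were called at an adjusted p below 0.001 and a fold change of at least 3, as in the study's methods. DESeq2 1.42.0, library sizes alone, other filters, 1 fit of all groups, a replicate block, thinned counts and leaving out each library were alternatives.

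On simulated counts with 200 of 15020 genes changed (NP against ESC), 69% of 4-fold and 86% of 8-fold changes were recovered. The corresponding shares over 14050 genes (TET TKO against ESC) were 69% and 90%. Of the unchanged genes, none was called in the first simulation and 1 in the second. The data differ from this setting, with 1865 genes called higher and 1500 lower in NPs. The shares therefore do not give the recovery in the data. Replicates were biological per the methods, and no 2 libraries agreed within sampling noise. Members, gene lists and tests were chosen with earlier results of these data known. Named are the 7 members, Tet genes, let-7 hosts, up to 4 called genes with the largest change per list and comparison, and the 2 most alike genes per member. Zfp42, Pou5f1, Esrrb, Klf4, Dppa5a, Stmn2, Vim, Nes, Hand1, Dcn, Lum, Thy1, Arid3b, Tarbp2, Dis3l2, Cdkn1a and Malsu1 were named after their values were seen. The same holds for T, Tubb3, Elavl3 and Col1a2. Exact permutation tests used scipy 1.17.1. Methylation data and protein and promoter sequences were not used here.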

Additional observations from a re-analysis of the deposited data

How the results depend on the processing

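Every call among the 7 genes in NPs was kept under each alternative except that of Igf2bp3 without ESC replicate 1, and leaving out each library called 1 to 2 of them higher and 2 lower. None of the 7 was called in TET TKO cells under any alternative, the 2-fold limit and counts thinned to ESC depth included. These alternatives were not combined. Hmga2 passed the adjusted p limit at over 2-fold but under 3-fold in 2 of them. They were DESeq2 (log2 fold change 1.19, adjusted p = 6.78e-08) and edgeR with no filter on RPKM (1.31, adjusted p = 2.175e-05). Without TET TKO replicate 3 the log2 fold change turned to 0.13 for Lin28a and to −0.073 for Igf2bp2. Leaving out each library in turn gave −0.71 to 0.13 for Lin28a and −0.073 to 0.36 for Igf2bp2. The count of genes called lower in NPs (1500) was 2588 with no filter on RPKM and 863 with at least 10 counts in every library. In TET TKO cells 118 genes were called higher and 184 lower. DESeq2 gave 412 and 518, no filter on RPKM gave 574 and 689, and the 2-fold limit gave 203 higher. Leaving out 1 library gave 10 to 117 higher and 37 to 183 lower, the lowest without ESC replicate 1. The replicate block gave 257 and 343 in TET TKO cells and changed no call among the 7 genes. Same-numbered libraries had correlations of −0.05, 0.01 and −0.10 (ESCs and NPs) and −0.07, 0.27 and 0.19 (ESCs and TET TKO cells) in their deviations from group means, so the numbers were not taken to pair the samples. With library sizes alone, 4 of the 21 group means of RPKM moved by over 1 SD. With the length of the longest coding transcript 15 of 21 did, for example Igf2bp2 in ESCs from 31.5 to 57.7 and Igf2bp3 in NPs from 19.99 to 37.5, while fold changes between groups do not involve length. With a pseudocount of 0.1 the most alike genes of Lin28b, Trim71 and Hmga2 changed by 1 of 2. The causes of these differences were not tested. The Lin28a share in NPs differed from ESCs by −25.1 to −22.6 points when a library was left out and by −38.2 points in counts without length. The corresponding TET TKO values were −4.03 to −2.70 and −6.43 points. Hmga2 in ESCs rests on the fewest reads, and 3 libraries a group limit the precision of all values.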
